A study of Mus musculus with 3 samples.

Results

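The proteasome is the barrel-shaped protease that degrades proteins tagged with ubiquitin. Genes of its subunits were followed here in cultured mouse hepatocytes given tauroursodeoxycholic acid (TUDCA), a bile acid conjugated to taurine. The members were the rows whose gene symbol is Psma, Psmb, Psmc, Psmd or Psme followed by a number, without the immunoproteasome genes Psmb8, Psmb9 and Psmb10. This took in 40 of the 37620 genes in each deposited table. The rule reads names and no measured value. All cells were primary hepatocytes of C57BL/6 mice at passage 1, isolated by collagenase perfusion of the liver and plated on gelatin with serum and insulin. One group was given the solvent DMSO (1 library, with no time on its label) and the other TUDCA, labelled 100 mM for 24 h (2 libraries). The dose is printed as labelled, and an error of its unit is possible. The sources used here give neither the sex or age of the mice nor which library came from which of the independent experiments that the series describes. The spread between the TUDCA libraries may therefore be technical, the DMSO library has no replicate, and culture time and TUDCA cannot be told apart.

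The library totals behind the values lay between 9757547 reads (TUDCA replicate 1) and 10774289 reads (DMSO). Hepatocyte markers were high in every library (Alb at 5771 to 7177 RPKM, reads per kilobase of gene, scaled to library size). Of 7 hepatocyte markers, 6 were higher than DMSO in both TUDCA libraries and limma called 2 of them, Fgb (log2 fold change 1.26) and Hnf4a (0.76), and the list summed to 10167 RPKM in DMSO and to 13184 and 11419 RPKM in the TUDCA libraries. Of 6 bile duct markers, 3 were tested, 2 were higher in both and Spp1 was called (log2 fold change 0.78). That list summed to 419.2, 803.8 and 627.4 RPKM in the order DMSO, TUDCA replicate 1, TUDCA replicate 2, with Cftr at 0 throughout. Spp1 alone made up 387.5, 767.5 and 578.2 RPKM of these sums, so they mainly follow that gene. Sox9 was the other marker higher in both (20.4, 26.1 and 31.7 RPKM). Krt19 was lower than DMSO in TUDCA replicate 1 and higher in TUDCA replicate 2, and Krt7 and Epcam were too low to be tested. Of 8 macrophage and Kupffer cell markers, 7 were tested, 6 were higher in both and none was called. They summed to 525.0, 590.6 and 658.0 RPKM in that order, and without Cd14 to 198.6, 190.4 and 205.7 RPKM. The 7 endothelial markers summed to 2.89, 4.69 and 3.83 RPKM, and the lymphocyte markers Cd3e and Cd8a were listed at 0. Of 8 stellate cell and fibroblast markers, 6 were tested and 4 were lower than DMSO in both TUDCA libraries, and their summed level was 14.6 RPKM in DMSO, compared with 12.7 and 11.0 RPKM under TUDCA. The part of other cells in the values below was not tested. In bulk RNA, fewer cells of a type and less RNA per cell cannot be told apart.

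As background, the proteasome has a core particle with outer rings of alpha subunits (Psma genes), which form the gate, and inner rings of beta subunits (Psmb genes). Only 3 of the beta subunits, the products of Psmb5, Psmb6 and Psmb7, cut peptide bonds. A regulatory particle caps the core. Its base holds the ATPases (Psmc genes), which unfold substrates and feed them in, and its lid holds the enzyme that takes off ubiquitin (Psmd14). Other caps, the activators of the Psme genes, open the core without ATP. Immune signals can replace the catalytic subunits by Psmb8, Psmb9 and Psmb10 and raise Psme1 and Psme2. Subunit genes are known to be induced together when proteasome activity is short, through the transcription factor encoded by Nfe2l1.

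In the hepatocytes the subunit genes stood high, with small differences that leaned downward with TUDCA and no single gene past the test. Of the 40 members, 38 had a mean of at least 1 RPKM and were tested. Their median level was 195.7 RPKM in DMSO, 184.8 in TUDCA replicate 1 and 182.3 in TUDCA replicate 2, against 14.7, 15.9 and 15.2 RPKM over all 11300 genes tested. Each tested member lay above at least 61.9% of the genes tested in the DMSO library. The tested members had 270 to 16941 reads per library, taken as the smallest whole numbers that give the values. All members together made up 1.33% of the summed RPKM in DMSO, 1.15% in TUDCA replicate 1 and 1.18% in TUDCA replicate 2.

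The label of constitutive subunits did not hold for all members. Psma8, an alpha subunit known from testis, had 4 reads in DMSO and 5 and 7 reads in TUDCA replicates 1 and 2 (0.288, 0.397 and 0.513 RPKM). Psmb11, the catalytic subunit of thymus epithelium, had 1 read in DMSO, 1 in TUDCA replicate 1 and none in TUDCA replicate 2, where 0 reads allow up to 0.0668 RPKM, counting error only. Neither was tested. Rows of near-identical copies were low, with Psme2b at 0.333 to 0.735 RPKM and the pseudogenes Psmb5-ps, Psmb6-ps and Psmb7-ps2 at 0 to 0.349 RPKM. The split of reads between Psme2 and Psme2b, and between subunit genes and their processed copies, is uncertain.

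Levels in RPKM differed widely between the genes. RPKM divides reads by a gene length that the sources used here do not give. The order of genes therefore also rests on those lengths. In DMSO, Psma2 had 1923 reads at 66.9 RPKM and Psma5 had 1467 reads at 167.5 RPKM. Abundance below means the level in RPKM. The highest was Psmd8, a lid subunit, in all 3 libraries (1040 RPKM in DMSO, 847.7 and 913.5 under TUDCA). The lowest tested member was Psmd9, an assembly chaperone (24.1, 18.2 and 22.2 RPKM). Psmb4 was second in each library. The ratio of the highest to the lowest tested member was 43.2 in DMSO, 46.5 in TUDCA replicate 1 and 41.1 in TUDCA replicate 2. Between genes of 1 group the ratio in DMSO was 8.51 in the alpha ring, 10.2 among the base ATPases and 13.1 in the lid, but 1.41 among the 3 catalytic subunits. With the members ordered by DMSO level, 21 of 37 neighbouring pairs kept that order in all 3 libraries. The other pairs did not, so the order of close neighbours was not fixed. This count does not separate the spread between libraries from a difference between DMSO and TUDCA.

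**Figure D1:**
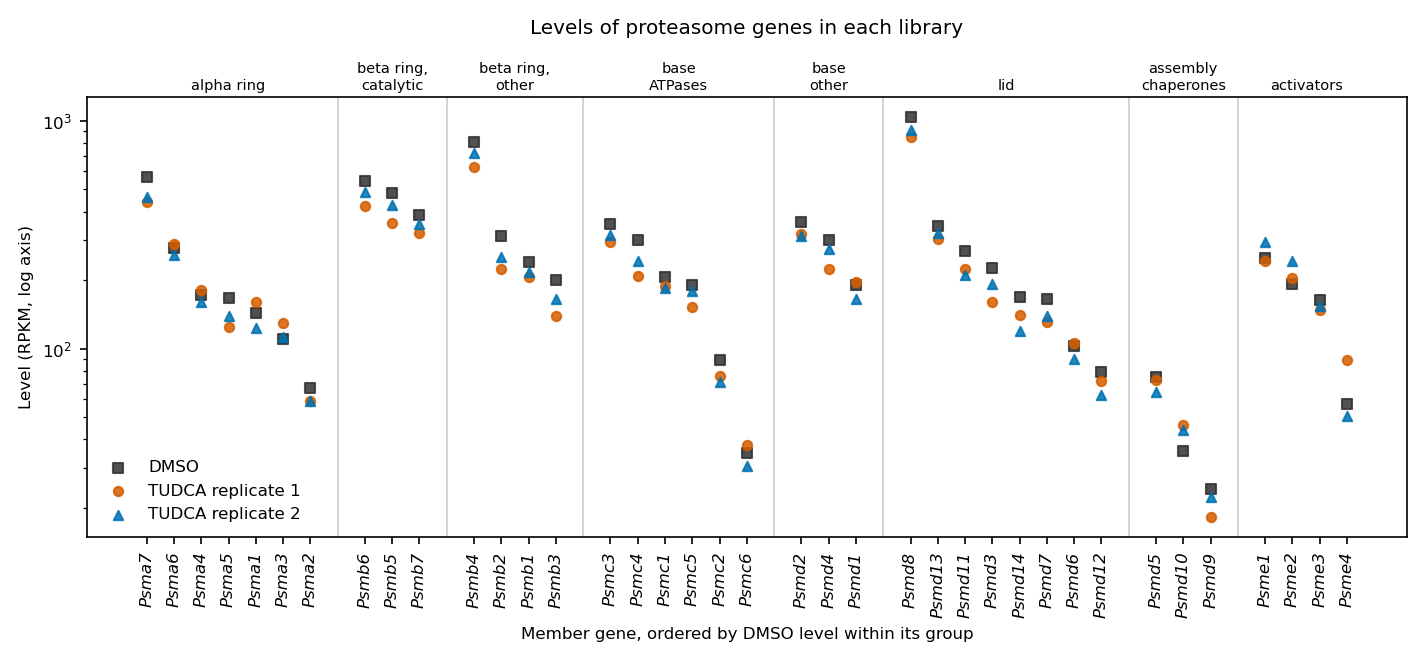
Level of each tested member in RPKM (log axis) in the DMSO library (squares), TUDCA replicate 1 (circles) and TUDCA replicate 2 (triangles), by group. Psmd8 and Psmb4 were highest in each library, and among the beta subunits every DMSO square lies above both TUDCA points.

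With TUDCA, 27 of the 38 tested members were lower than DMSO in both libraries, 3 were higher in both and 8 went different ways. Over all genes tested, 30.4% were lower in both and 40.5% higher in both. Among the 1257 genes that averaged 100 RPKM or more, 47% were lower in both and 24.7% higher in both, against 22 and 2 of 29 members at that level. The mean log2 fold change was negative for 33 members, against 44.1% of all genes tested. For 18 members the lower value in both libraries also came with a gap to DMSO larger than the distance between the TUDCA libraries, against 15.5% of all genes tested. The median difference of the members from DMSO on the log2(RPKM + 1) scale was -0.23 in TUDCA replicate 1 and -0.18 in TUDCA replicate 2, and over all genes tested it was 0.06 and 0.02. At 100 RPKM and above the median differences were -0.26 and -0.16 for members and -0.12 and -0.03 for all genes. Both differences use the same DMSO library, so they are not independent of each other.

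None of the 38 members passed the test, fitted with limma over all 11300 genes (Benjamini-Hochberg adjusted p between 0.439 and 0.995, threshold 0.05). Over all genes tested 1.77% were called higher and 0.876% lower. At an unadjusted p under 0.05, 1 member was lower (Psmc4) and none higher, against 4.19% and 6.58% of all genes tested. limma with voom weights on the recovered reads called no member either. No member differed from DMSO by a log2 difference of at least 1 in both libraries, which 0.77% of all genes did upward and 0.283% downward. The SE of a member's log2 fold change was 0.20 to 0.25, and the DMSO library was assumed to vary like the TUDCA pair, so differences of the size seen here could not be told apart from the spread between libraries gene by gene.

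**Figure D2:**
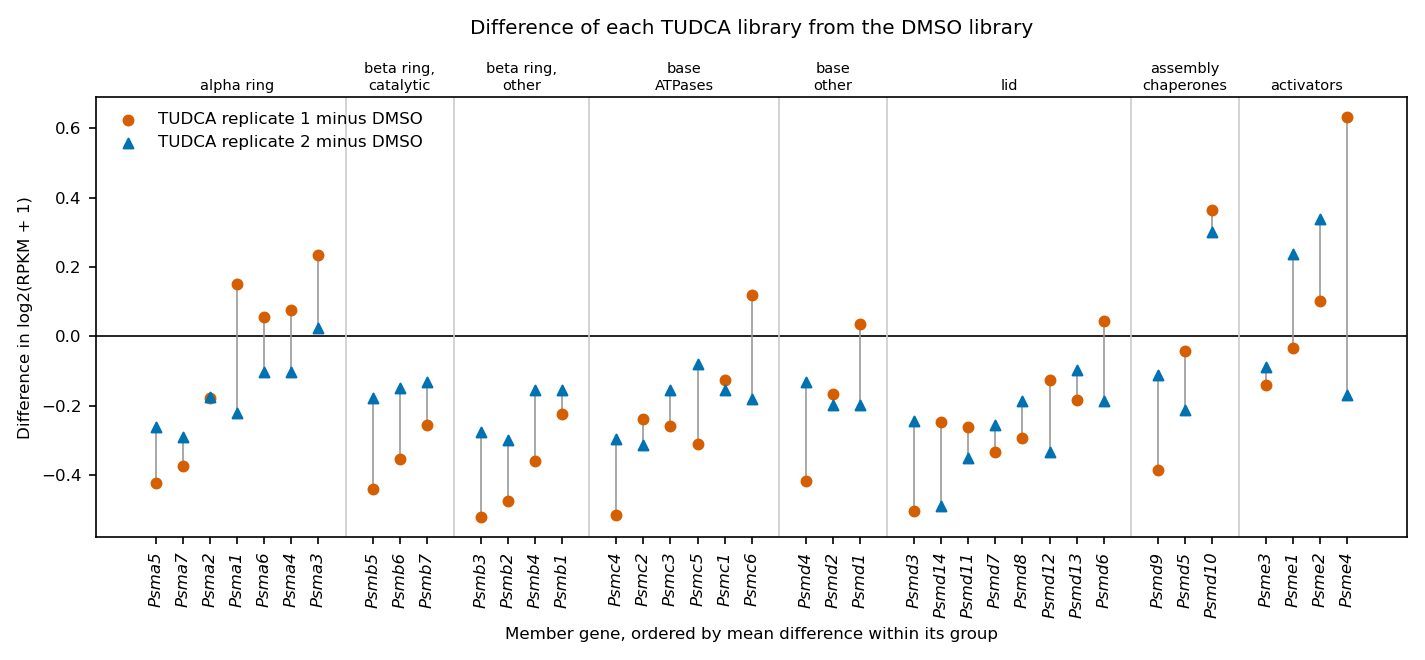
Difference in log2(RPKM + 1) of TUDCA replicate 1 (circles) and TUDCA replicate 2 (triangles) from the single DMSO library for the 38 tested members, by group, with a grey line joining the pair. All 7 beta subunits lie below 0 in both libraries, while Psmd10 and Psme2 lie above 0 in both.

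The beta ring was the group in which every gene was lower than DMSO in both TUDCA libraries. Psmb5, the subunit that cuts after hydrophobic residues, had 481.8 RPKM in DMSO, compared with 355.1 and 426.1 RPKM in TUDCA replicates 1 and 2 (log2 fold change -0.31 ± 0.20, limma adjusted p = 0.650). Psmb6, which cuts after acidic residues, had 542.1 RPKM in DMSO, compared with 423.8 and 488.5 under TUDCA. Psmb7, which cuts after basic residues, had 385.6 RPKM in DMSO, compared with 323.1 and 352.2 under TUDCA. For all 3 the DMSO value was the highest and TUDCA replicate 1 the lowest. Only Psmb7 had a gap to DMSO larger than the distance between its TUDCA values.

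The remaining beta subunits have no catalytic site and complete the ring. Psmb3 had 199.97 RPKM in DMSO, compared with 139.0 and 164.9 under TUDCA (log2 fold change -0.40 ± 0.20, limma adjusted p = 0.468). Psmb2 had 311.6 RPKM in DMSO, compared with 223.7 and 253.2 under TUDCA, and Psmb4, the most abundant of the ring, had 805.1, 627.4 and 723.0 RPKM. Psmb1 differed least, with 240.9 RPKM in DMSO, compared with 206.2 and 216.5 under TUDCA. The median log2 fold change was -0.32 for these 4 genes and -0.25 for the 3 catalytic genes, and none was called.

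The alpha genes were mixed in direction. Psma5 (167.5 RPKM in DMSO, 124.7 and 139.6 with TUDCA), Psma7 (569.3, 438.9 and 465.2 RPKM) and Psma2 (66.9, 59.0 and 59.1 RPKM) were lower than DMSO in both libraries, each by more than the TUDCA pair differed. Psma7 had the highest RPKM of the alpha genes and Psma2 the lowest of those tested, an order that also rests on the gene lengths used. Psma1 had 143.8 RPKM in DMSO, 159.8 in TUDCA replicate 1 and 123.4 in TUDCA replicate 2, so its TUDCA libraries stood on either side of DMSO, as they did for Psma4 and Psma6. Psma3 had 110.3 RPKM in DMSO, compared with 130.0 and 112.2 under TUDCA and was the only tested core gene higher in both libraries (log2 fold change 0.13 ± 0.21, limma adjusted p = 0.931). The median difference over the 7 alpha genes was 0.05 in TUDCA replicate 1 and -0.18 in TUDCA replicate 2, against -0.36 and -0.16 for the 7 beta genes. These subunits build the outer ring that controls entry to the core.

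Among the 6 base ATPases, which form the ring that threads substrates into the core, 5 were lower than DMSO in both libraries. Psmc4 had the lowest mean fold change of the tested members. However, Psmb3 was lower in TUDCA replicate 1, and Psmd14, Psmd11, Psmd12, Psmc2 and Psmb2 were lower in TUDCA replicate 2. Psmb3 was also lower after quantile normalization, and Psmb3, Psmd14 and Psmd11 after a correction for GC content and length. Psmc4 had 299.5 RPKM in DMSO, compared with 209.4 and 243.7 RPKM in TUDCA replicates 1 and 2 (log2 fold change -0.41 ± 0.20, limma unadjusted p = 0.0438, adjusted p = 0.439). Psmc3, the most abundant ATPase, had 352.8 RPKM in DMSO, compared with 295.0 and 316.7 under TUDCA. Psmc6 was the least abundant (34.7, 37.8 and 30.5 RPKM) and the only ATPase whose TUDCA libraries lay on either side of DMSO. The ATPase genes had a median log2 fold change of -0.20.

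The other base genes encode the scaffold subunits Psmd1 and Psmd2 and the ubiquitin receptor Psmd4. Psmd2 had 358.2 RPKM in DMSO, compared with 319.1 and 311.9 under TUDCA, a gap larger than the distance within the TUDCA pair. Psmd4 had 299.6 RPKM in DMSO, 224.0 in TUDCA replicate 1 and 273.3 in TUDCA replicate 2. Psmd1 had 190.8, 195.7 and 166.1 RPKM, so that 1 TUDCA library was above DMSO and 1 below.

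In the lid, 7 of 8 genes were lower than DMSO in both libraries and the median log2 fold change was -0.27. Psmd14, the metalloprotease that removes ubiquitin chains before degradation, had 167.8 RPKM in DMSO, compared with 141.2 and 119.3 RPKM under TUDCA (log2 fold change -0.37 ± 0.21, limma adjusted p = 0.559). Unlike the beta genes, it was lowest in TUDCA replicate 2. Psmd3, a scaffold subunit of the lid, had 227.1 RPKM in DMSO, compared with 160.0 and 191.6 under TUDCA. Psmd11 had 268.8 RPKM in DMSO, compared with 224.2 and 210.6 under TUDCA, and Psmd12, the least abundant lid gene, had 79.1, 72.4 and 62.6 RPKM. Psmd6 was the exception, with 102.5 RPKM in DMSO, 105.7 in TUDCA replicate 1 and 90.0 in TUDCA replicate 2.

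The 7 tested genes outside the core and regulatory particle, assembly chaperones and activators, were mixed. Of these, 3 were lower than DMSO in both libraries, 2 were higher in both and 2 went different ways, against 24, 1 and 6 of the 31 tested core and regulatory genes. Their median difference was -0.03 in TUDCA replicate 1 and -0.09 in TUDCA replicate 2, against -0.25 and -0.19 for the core and regulatory genes, and this difference between the groups was not tested. Psmd10, also known as gankyrin, a chaperone of base assembly that also binds the retinoblastoma protein, had 35.5 RPKM in DMSO, compared with 46.1 and 44.0 RPKM under TUDCA (log2 fold change 0.33 ± 0.23, limma adjusted p = 0.694). It was the only tested member higher in both libraries by more than they differed from each other, a pattern shown by 20.7% of all genes tested. The chaperones Psmd5 (75.1 RPKM in DMSO, 72.8 and 64.7 with TUDCA) and Psmd9 (24.1, 18.2 and 22.2 RPKM) were lower in both.

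Of the activators, Psme1 and Psme2 encode the subunits of the interferon-inducible cap PA28. Psme2 had 191.4 RPKM in DMSO, compared with 205.3 and 242.2 RPKM in TUDCA replicates 1 and 2 (log2 fold change 0.22 ± 0.20, limma adjusted p = 0.820). Psme1 had 249.1 RPKM in DMSO, 243.5 in TUDCA replicate 1 and 294.2 in TUDCA replicate 2. Both were highest in TUDCA replicate 2. The immunoproteasome genes Psmb8 (69.1, 71.0 and 95.2 RPKM) and Psmb10 (77.6, 69.7 and 98.3 RPKM) were also highest in that library, and neither was called (limma adjusted p = 0.801 and 0.961). Psmb9 was not analysed here. The summed macrophage markers were highest in the same library, at 658.0 RPKM, of which Cd14 made up 452.3 RPKM. Csf1r (7.41 RPKM), Clec4f (4.42 RPKM) and Vsig4 (2.98 RPKM) were also highest in TUDCA replicate 2. Cd68 was highest in DMSO, and Adgre1, Lyz2 and Ptprc in TUDCA replicate 1. The part of these cells in the values was not tested.

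Psme3, an activator found in the nucleus, had 163.4 RPKM in DMSO, compared with 148.1 and 153.7 under TUDCA. Psme4, which encodes the large activator PA200, had 56.9 RPKM in DMSO, 88.7 in TUDCA replicate 1 and 50.5 in TUDCA replicate 2. Its TUDCA libraries differed more than those of any other tested member, and its log2 difference was 0.63 in one and -0.17 in the other.

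The disagreement between the TUDCA libraries moved with the base composition of the transcripts and, less closely, with their length. In TUDCA replicate 1, 28 members were lower than DMSO (43.4% of all genes tested were) and 10 were higher, and in TUDCA replicate 2, 34 were lower (46.4% of all genes). GC content and length were taken from the longest GENCODE M21 transcript of each gene, which need not be the one expressed. The 10 members higher in TUDCA replicate 1 had a median GC content of 44.5%, against 50.9% for the 28 lower ones. Psmc6 (37.0% GC), Psma3 (40.8%), Psmd10 (42.3%) and Psme4 (43.9%) were among the former, with Psme2 at 52.8%. Psma2 (39.4%), Psmd11 (39.9%), Psmb7 (40.8%), Psmc2 (41.3%) and Psmd14 (43.2%) were as low in GC and were lower than DMSO in that library. Across the 38 members, which are genes of the same 3 libraries and not replicates, GC content had a Pearson correlation of -0.51 (Spearman -0.53) with the difference of TUDCA replicate 1 from DMSO. The Pearson correlation was 0.12 (Spearman 0.13) for TUDCA replicate 2. Over 11149 genes with a GC value the Pearson correlations were -0.34 and 0.05. For TUDCA replicate 1 minus TUDCA replicate 2, the Pearson correlation with GC content was -0.65 over the members and -0.50 over these genes. With log2 transcript length it was 0.41 (Spearman 0.26) over the members and 0.23 (Spearman 0.31) over these genes. After a correction of both TUDCA libraries for GC content and transcript length, 33 members were lower than DMSO in both libraries, against 40.7% of all genes. That correction also removed the mean difference of each TUDCA library from DMSO over the genes fitted. Median centring, which only shifts each library, gave 31 members lower in both, against 39.7% of all genes. With the GC and length correction, 10 members were lower at an unadjusted limma p under 0.05, against 9.80% of all genes, and limma called none (smallest adjusted p = 0.0902). With quantile normalization, 29 of 38 members had a negative fold change in place of 33, against 51.5% of all genes in place of 44.1%, and the alpha genes Psma1, Psma4 and Psma6 and the lid gene Psmd6 turned positive.

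**Figure D3:**
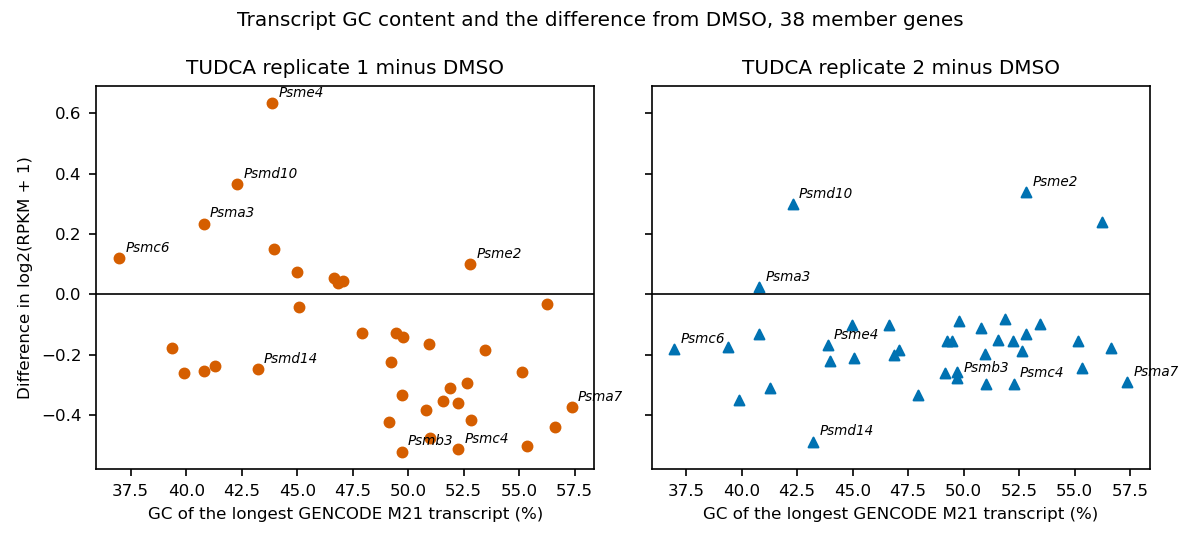
GC content of the longest GENCODE M21 transcript of each tested member against the difference in log2(RPKM + 1) of TUDCA replicate 1 (left) and TUDCA replicate 2 (right) from DMSO. Members with low GC lie higher on the left (Pearson -0.51 over 38 genes), and no such slope is seen on the right (0.12).

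Proteasome genes are known targets of factors that bind the antioxidant response element, so their promoters were searched for its core, TGACNNNGC, and for CCAAT, the site of the factor NF-Y, on both strands. The RefSeq windows run from 250 bases before to 50 bases after the transcription start (GRCm38.p6), and 33 members had at least 1. The element core was found for 6 of these 33 genes (18.2%), against 14.0% of 27025 genes with a window. CCAAT was found for 13 of 33 genes (39.4%), against 41.1% of all, so neither share stood far from that of other promoters. The matches in front of the start are shown for the catalytic genes Psmb5 and Psmb6 and, for comparison, for the chaperone gene Psmd9, the lid gene Psmd12 and the ATPase gene Psmc6, with the element core in capitals and 5′ to 3′ on the strand of the gene. Psmb5, Psmb6 and Psmd9 hold it in the gene's own direction close to the start, with its first base at position -47, -9 and -31, and Psmd12 and Psmc6 hold it on the opposite strand at -247 and -227.
Psmb5, chr14:54618009-54618067, minus strand: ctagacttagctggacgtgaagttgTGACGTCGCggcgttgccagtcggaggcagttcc
Psmb6, chr11:70525338-70525356, plus strand: ctaaagagagTGACGGAGC
Psmd9, chr5:123228134-123228189, plus strand: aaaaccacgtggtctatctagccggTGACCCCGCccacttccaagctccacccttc
Psmd12, chr11:107479278-107479314, plus strand: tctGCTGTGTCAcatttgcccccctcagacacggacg
Psmc6, chr14:45329574-45329630, plus strand: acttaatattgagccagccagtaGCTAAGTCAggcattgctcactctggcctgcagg

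The sixth gene with a match was Psme4, where it spans the start. These 6 genes had log2 fold changes of -0.31 (Psmb5) to 0.23 (Psme4) with a median of -0.24, and 4 of the 6 were lower than DMSO in both libraries. The 26 tested members with a window and no match had a median of -0.16, and 17 of them were lower in both. A match shows the letters only and was not tested as a binding site.

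Of 11 tested transcription factors and partners tied to proteasome genes, 4 were lower and 4 higher in both libraries (median log2 fold change -0.05). Nfe2l1, the main inducer of subunit genes, had 81.4 RPKM in DMSO, compared with 78.6 and 78.1 under TUDCA (limma adjusted p = 0.983). Nfe2l2, which encodes NRF2, rose from 80.4 RPKM to 140.3 and 148.7 RPKM (log2 fold change 0.84 ± 0.21, limma adjusted p = 0.00423), a call lost with limma under median centring (adjusted p = 0.0773), without the variance trend (adjusted p = 0.0866) and without the filter on low values (adjusted p = 0.502), and kept under the other 7 alternatives with a test (adjusted p between 0.00174 and 0.0149). It was the only one of the 11 called, and the lowest was the partner protein Mafk, with 58.9 RPKM in DMSO, compared with 37.7 and 39.1 under TUDCA (log2 fold change -0.61 ± 0.23, limma adjusted p = 0.166).

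No gene was called among the other factors that work with the proteasome. Of 16 subunits, assembly factors and partners (Adrm1, Sem1, Pomp, the Psmg chaperones and others), 6 were lower in both libraries and 2 higher, with a median log2 fold change of -0.09. Zfand2a, a zinc finger protein that associates with the proteasome under stress, was the lowest (112.0 RPKM in DMSO, 69.1 and 79.0 with TUDCA), and Ecpas, an adaptor of the particle, the highest (27.9, 40.7 and 32.1 RPKM). Adrm1, a ubiquitin receptor of the base, had 108.5 RPKM in DMSO, compared with 78.4 and 91.5 under TUDCA. Of 17 genes of ubiquitin, its activation and its shuttles, 11 were lower in both and 2 higher (median -0.13), from Ubb at 1052 RPKM in DMSO, compared with 648.0 and 874.4 under TUDCA to Faf2 at 123.9, 137.3 and 144.9 RPKM.

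Other complexes of many subunits were set beside the proteasome. The COP9 signalosome and the translation factor eIF3 share the architecture of the lid. The 10 COP9 genes had a median log2 fold change of 0.02, from Cops8 at -0.43 to Cops3 at 0.75 (limma adjusted p = 0.507 and 0.0712). The 13 eIF3 genes had a median of -0.14, from Eif3g at -0.31 to Eif3e at 0.18, and the 8 genes of the CCT chaperonin, a folding machine, a median of -0.11, from Cct7 at -0.33 to Cct4 at 0.18. Of these genes, 3 of 10 COP9, 7 of 13 eIF3 and 5 of 8 CCT genes were lower than DMSO in both libraries, and none was called. In TUDCA replicates 1 and 2 alone the medians were -0.22 and -0.07 for eIF3 and -0.06 and -0.17 for CCT. For COP9 they were 0.02 and -0.02. The core particle had a median log2 fold change of -0.22 and the regulatory particle of -0.23. In TUDCA replicates 1 and 2 alone the core particle was at -0.30 and -0.17 and the regulatory particle at -0.25 and -0.20. Within the core particle the median log2 fold change was -0.03 for the alpha ring and -0.26 for the beta ring. The differences between complexes were not tested.

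**Figure D4:**
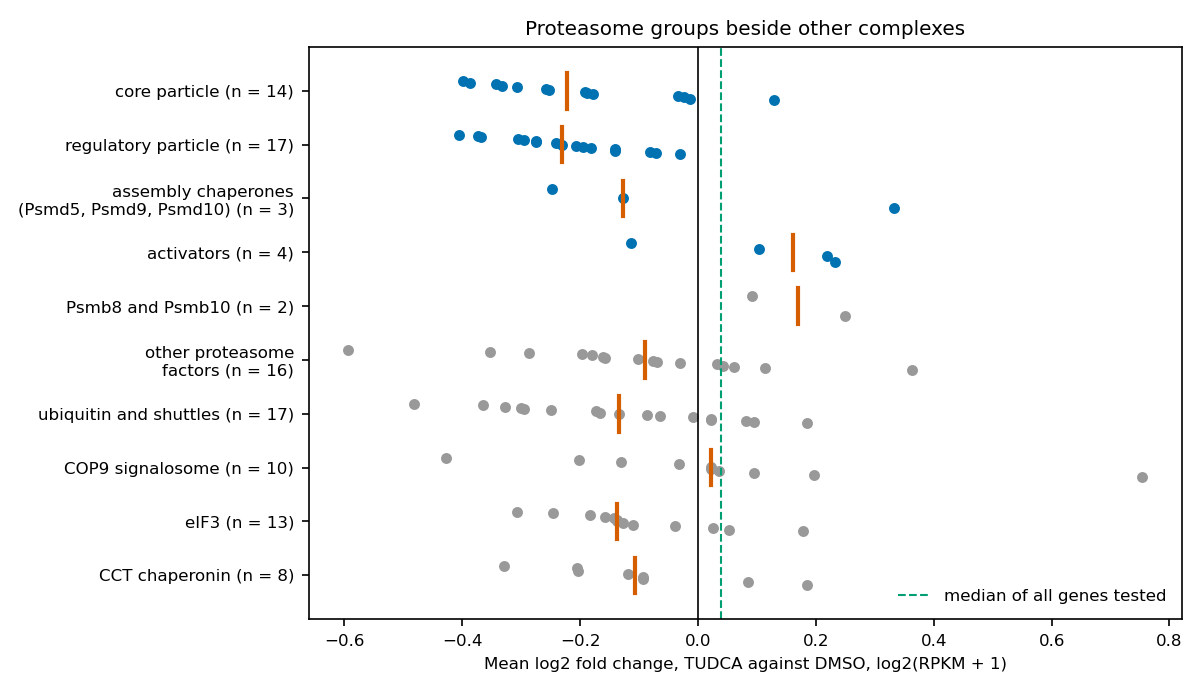
Mean log2 fold change of TUDCA against DMSO for each gene (points) of the proteasome groups (blue) and of other lists (grey), with the median of each list as an orange bar and the median of all genes tested as a dashed line. The core and regulatory particle have medians of -0.22 and -0.23, and the activators and the pair Psmb8 and Psmb10 medians above 0.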

How the data were processed

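RNA-seq of 3 libraries of primary mouse hepatocytes was used, 1 with DMSO and 2 with TUDCA. The authors deposited RPKM values, 1 table per library. Tools listed in the submitters' processing notes, with no role given, are TopHat2 2.0.7 with Bowtie2, HTSeq and CASAVA. Genome build, annotation and strand setting: not given in the sources used here. Symbols came by identifier from GENCODE M21 (32897 of 37620 matched). Values were tested as log2(RPKM + 1), which understates changes of low genes, for the 11300 genes that averaged 1 RPKM or more, with limma 3.58.1 (R 4.3.3, variance trend on the mean, Benjamini-Hochberg, threshold 0.05), after a check on simulated data. Residual spread came from the TUDCA pair alone, and limma gave each gene the common spread at its level. Reads were recovered as whole numbers (within 1e-06) for all 19146 genes above 0. The smallest such reads summed to 95.7 to 95.9% of the library totals.

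Values were given in each library for called members, for the highest and lowest level and fold change in each group, and for catalytic subunits and activators. In other lists they were given for called genes and the highest and lowest fold change. Adrm1, Nfe2l1 and some further members were added after their values were seen. Of 163 list and marker entries, 160 matched. Members and lists were chosen with earlier results of these data known. The settings varied were the pseudocount (0.1), the filter (none, or 5 RPKM), the scale (TPM), quantile normalization, median centring, no variance trend, robust estimation, voom on the recovered reads, a GC and length correction from the longest transcript, and each TUDCA library left out. Promoter windows were RefSeq's.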

Additional observations from a re-analysis of the deposited data

How the results depend on the processing

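No member was called by limma under any alternative with a test, and leaving out a TUDCA library left no residual degree of freedom, so it gave values without a test. The median log2 fold change of the members was -0.19 and stayed negative under every alternative. It was -0.13 with quantile normalization, -0.27 with median centring and -0.25 after the GC and length correction, and -0.18 to -0.23 with 1 TUDCA library left out. The count of members lower in both libraries (27) was 26 with quantile normalization, 31 with median centring and 33 after the GC and length correction, settings chosen for this count after seeing the data. With 1 library left out the count is of members lower in the remaining library, 28 to 34, which cannot fall under 27 and says nothing about stability. The 3 members higher in both were 1 with median centring, and 4 to 10 were higher in the library that remained when 1 was left out, which likewise cannot be fewer than 3. With quantile normalization the log2 fold changes of Psma6, Psma4, Psma1 and Psmd6 turned to 0.073, 0.075, 0.048 and 0.0072, and that of Psma3 was -0.00016 after the GC and length correction. With 1 TUDCA library left out, the range was -0.033 to 0.24 for Psme1, -0.17 to 0.63 for Psme4, -0.10 to 0.055 for Psma6, -0.10 to 0.075 for Psma4, -0.22 to 0.15 for Psma1, -0.18 to 0.12 for Psmc6, -0.20 to 0.036 for Psmd1 and -0.19 to 0.043 for Psmd6. Every other log2 fold change of a tested member kept its sign in all alternatives. The causes were not tested. No paired analysis was possible because there was only 1 DMSO library, which also carries no replicate number. Over all genes limma called 299, and 232 to 410 under the other alternatives with a test, except without the filter on low values, where it called 0. The single DMSO library limits the precision of every difference.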
